A study of Mus musculus with 13 samples.

Results

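The comparison described here set old mice under long-term dietary restriction against old mice under acute dietary restriction, in single-nucleus RNA sequencing of whole frozen hippocampus. The members were chosen by title: 4 mice labelled long-term restriction and 3 mice labelled acute restriction, 7 of the 13 mice of the series. All were females of a hybrid strain that the sample labels write C3HB6F1 and the series text C3B6F1, and 24 months old, and the labels name no transgene or deletion. The long-term group had been restricted from 5 months of age, so for 19 months, and the acute group from 20 months of age, so for 4 months. Age and diet at sampling were therefore the same in both groups, and the time already spent under restriction, with the age at which it began, was what differed. Old mice fed ad libitum (24 months, n = 3) and young mice fed ad libitum (5 months, n = 3) are given as the background. Each mouse gave 1 library of nuclei sorted on the DNA dye Hoechst and captured in droplets with a 3′ chemistry that counts each captured RNA molecule once by a unique molecular identifier (UMI).

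Dietary restriction, a sustained cut in food intake without malnutrition, extends life span in many species and is known to alter nutrient, insulin and stress-hormone signalling. Circulating glucocorticoids rise during food restriction in rodents. They act through the glucocorticoid receptor, a transcription factor that oligodendrocytes and astrocytes carry and whose textbook targets include Fkbp5, a chaperone that feeds back on the receptor, Sgk1, a kinase, and Pdk4, a mitochondrial kinase that diverts cells from glucose to fatty acid use. Oligodendrocytes wrap axons in a lipid-rich myelin sheath and arise from dividing precursor cells that persist in the adult hippocampus.

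In all, 98041 nuclei were retained after 7386 doublets had been removed, and 81781 of them fell into 14 classes named from marker genes. The 7 restricted libraries held 38546292 to 80538090 UMIs each and shared at most 0.471% of the barcodes of the smaller library of any pair over the series. The oligodendrocyte-like class was 1 cluster of 10039 nuclei with 11 of 11 markers raised, and the precursor-like class was 1 cluster of 2983 nuclei with 8 of 8 markers raised. UMIs were summed per mouse and class, and a gene was called where edgeR's quasi-likelihood test gave a Benjamini-Hochberg adjusted p below 0.05 within its class; levels are given as CPM, the UMIs of a gene scaled to a common total for the class and mouse. Mouse 1 of each group stood apart. Oligodendrocyte-like nuclei made up 2.49% of the named nuclei in acute mouse 1 and 2.53% in long-term mouse 1, against 12.7% to 26.7% in the other 5 restricted mice, so these sums rest on 163 and 186 nuclei. What is called without them is given separately. Nothing in the labels says what the mouse numbers mark.

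The genes called by edgeR between long-term and acute restriction were in the oligodendrocyte lineage. Of 123015 tests of a gene in a class, over 13 classes, 13 passed: 11 in oligodendrocyte-like nuclei and 2 in their precursors. This did not hold for every alternative: DESeq2 placed 4 of its 18 calls in endothelial-like and 6 in CA1 pyramidal and granule neuron-like nuclei, and without the filter on low counts 38 of 150 calls were in subicular or cortical excitatory neuron-like nuclei. In oligodendrocyte-like nuclei 3 genes rose and 8 fell under long-term relative to acute restriction, which is 0.0968% of the 11365 genes tested there. In precursor-like nuclei 2 genes fell, 0.0218% of 9168. With the deposited library number as a factor 23 genes were called in each of these classes and 6 in endothelial-like nuclei. In granule neuron-like and oligodendrocyte-like nuclei, mice of the 2 groups with the same deposited library number deviated together in each of 3 pairs. No label says what that number marks. With a block for the replicate number of the titles, 82 genes were called in endothelial-like nuclei, but mice with the same replicate number did not deviate together in each pair. Over all classes 3519 tests had an unadjusted p below 0.05, against 6150.8 at a uniform distribution of p. The share was 5.58% in oligodendrocyte-like and 5.38% in precursor-like nuclei and lay between 1.07% and 4.64% in the other 11 classes.

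The plot of the 13 calls by mouse shows how the groups lay relative to mice that were never restricted. The mean log2 CPM of the acute mice lay beyond the means of both the long-term and the old ad libitum mice for 13 of 13 calls. The long-term mean lay between the acute and the old ad libitum mean for 11 of 13, and it was nearer to the old ad libitum mean than the acute mean was for 12 of 13. These counts are a description, since the genes were chosen for the difference between long-term and acute mice and both comparisons share the acute mice. The same limit holds for the overlap of values, since a gene whose groups lie apart is more readily called. Long-term and acute mice did not overlap for 12 of 13 calls. Over all genes tested in oligodendrocyte-like nuclei the groups did not overlap for 5.98%, and no such share is given for precursor-like nuclei.

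**Figure D1:**
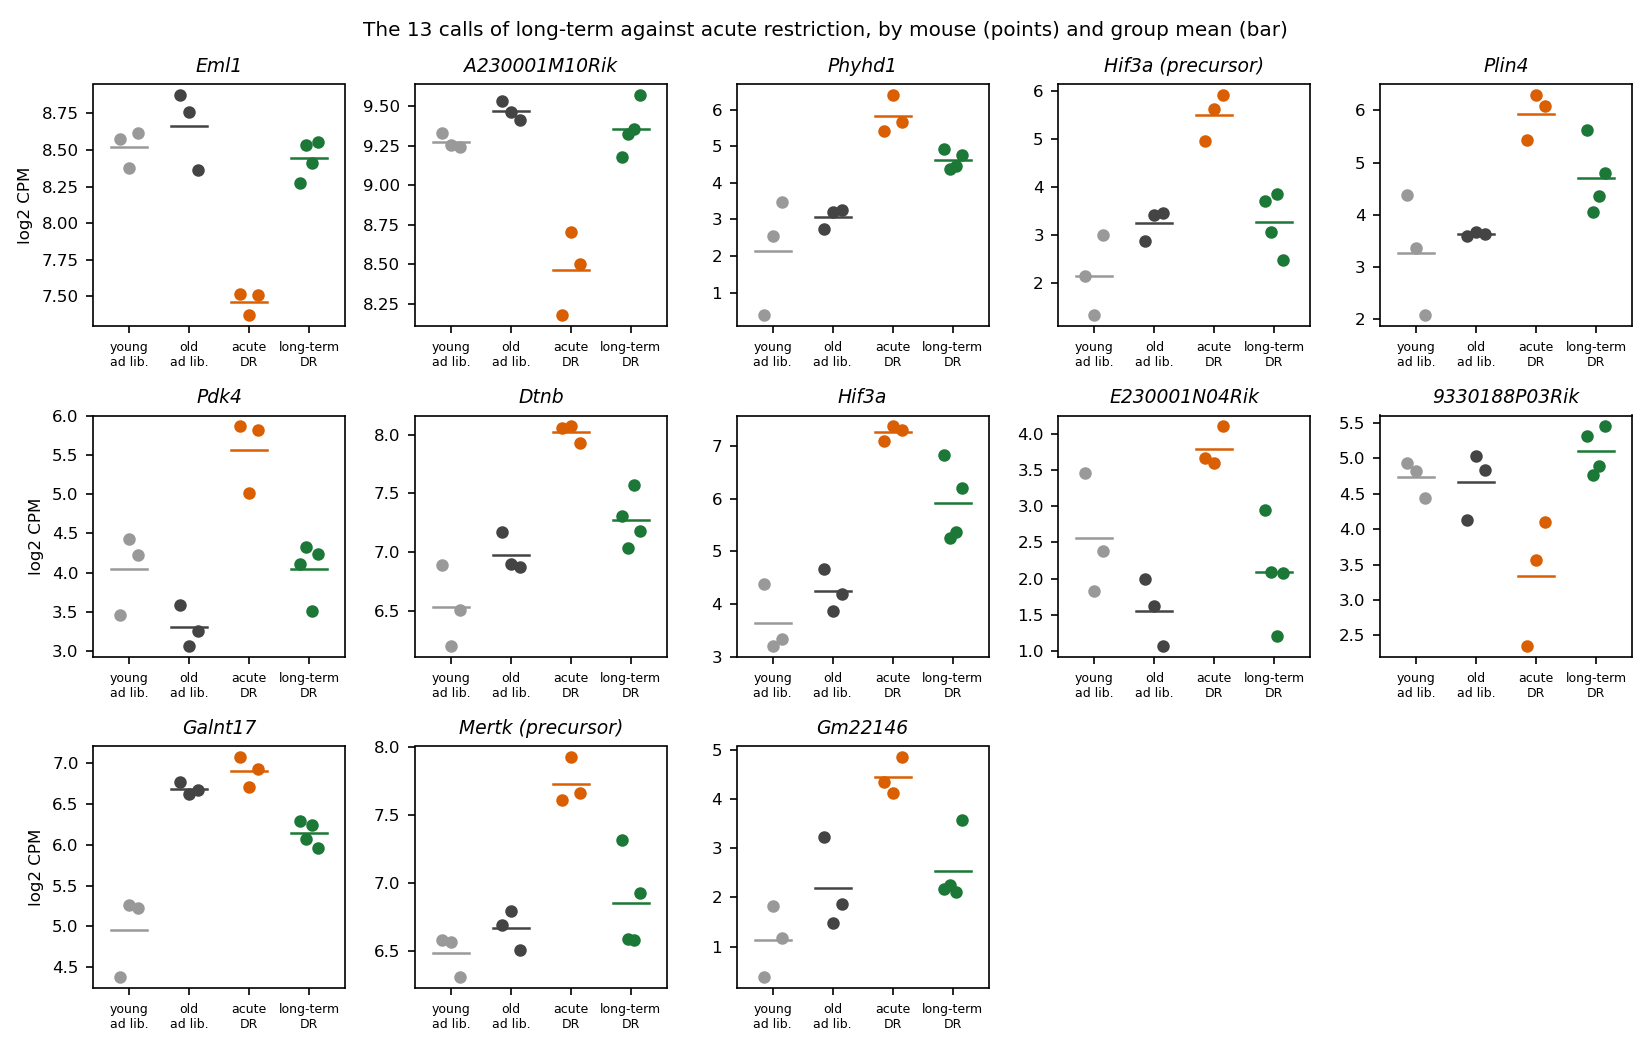
Level (log2 CPM, vertical axes, a different range in each panel) of the 13 called genes in each mouse; points are mice, bars are group means, and "precursor" marks the panels from precursor-like nuclei. In 12 of the 13 panels the 4 long-term and the 3 acute mice do not overlap, and the exception is Plin4.

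The genes that fell included 3 that glucocorticoids are known to induce: Pdk4, Plin4 and Hif3a. Their promoters are printed because these 3 are the called genes of the glucocorticoid list, with that of Fkbp5, at whose locus another pair of calls lies; each window is the 250 bases before the transcription start, from RefSeq on GRCm38.p6 (for Fkbp5 this start lies inside the longer GENCODE span by which its locus is given further on), with matches of CCAAT on either strand and of CACGTG in capitals.
Pdk4, chr6:5496279-5496528, minus strand: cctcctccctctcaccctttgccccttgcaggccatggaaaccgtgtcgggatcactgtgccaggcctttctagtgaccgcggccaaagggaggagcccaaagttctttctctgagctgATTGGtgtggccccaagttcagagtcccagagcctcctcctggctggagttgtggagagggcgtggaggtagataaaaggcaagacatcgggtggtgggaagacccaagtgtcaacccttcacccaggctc
Plin4, chr17:56109783-56110032, minus strand: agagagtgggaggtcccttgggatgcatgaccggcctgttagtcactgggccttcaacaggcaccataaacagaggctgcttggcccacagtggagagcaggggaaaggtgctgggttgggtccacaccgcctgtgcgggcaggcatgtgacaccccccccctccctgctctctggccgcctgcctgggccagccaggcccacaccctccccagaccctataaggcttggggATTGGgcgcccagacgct
Hif3a, chr7:17062428-17062677, minus strand: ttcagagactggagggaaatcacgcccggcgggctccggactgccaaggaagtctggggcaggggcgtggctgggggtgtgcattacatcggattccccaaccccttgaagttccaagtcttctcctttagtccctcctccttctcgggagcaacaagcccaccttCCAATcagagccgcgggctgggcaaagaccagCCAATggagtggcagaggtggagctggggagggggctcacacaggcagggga
Fkbp5, chr17:28486150-28486399, minus strand: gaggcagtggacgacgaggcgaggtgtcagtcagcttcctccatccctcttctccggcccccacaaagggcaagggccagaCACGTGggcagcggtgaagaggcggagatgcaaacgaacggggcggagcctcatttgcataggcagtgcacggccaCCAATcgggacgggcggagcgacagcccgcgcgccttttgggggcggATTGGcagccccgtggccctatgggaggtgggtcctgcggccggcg
The CCAAT box was present in all 4 windows, with 1 match each in Pdk4 and Plin4 and 2 each in Hif3a and Fkbp5, where 33.9% of 32851 RefSeq windows of the same length hold 1 or more. The E-box CACGTG, the site bound by clock factors among others, was matched once, 169 bases before the Fkbp5 start, and is held by 6.02% of windows. The hexamer AGNACA, the core of a glucocorticoid receptor site, was searched on both strands and matched in none of the 4 windows; 44.7% of all windows hold it. Bases outside these windows were not searched, so the search cannot show whether these genes have receptor sites elsewhere.

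Pdk4 (chr6:5483351-5496309, minus strand) stood at 56.9, 31.8 and 56.0 CPM in oligodendrocyte-like nuclei of the acute mice and at 15.2, 19.0, 9.99 and 16.9 in the long-term mice. Every long-term mouse lay below every acute mouse. The old ad libitum mice had 9.91, 6.94 and 8.18 CPM, the first from 4 UMIs. On the log2 CPM scale they overlapped the long-term mice, with old ad libitum mouse 1 at 3.59 and long-term mouse 3 at 3.52. The young ad libitum mice, at 10.8, 19.8 and 17.3 CPM, lay near the long-term mice. The estimated log2 difference was -1.51 ± 0.26 (SE; edgeR adjusted p = 0.00507), a level 2.85-fold lower. Without acute mouse 3 it was -1.25 and did not pass (edgeR adjusted p = 0.201), and with the median UMIs per nucleus in the model it was -1.23 (edgeR adjusted p = 0.246).

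Plin4, a coat protein of lipid droplets (chr17:56100591-56109803, minus strand), stood at 41.7, 78.1 and 67.7 CPM in the acute mice. The long-term mice had 45.7, 15.5, 19.0 and 25.4 CPM, so that long-term mouse 1 overlapped the lowest acute mouse and the other 3 lay below all acute mice. The estimate was -1.57 ± 0.26 on the log2 scale (edgeR adjusted p = 0.00411), and it did not pass without acute mouse 2 (-1.40, edgeR adjusted p = 0.125). Plin4 overlaps Hdgfl2 on the other strand, and the use of strand in counting is not given in the sources used here, so part of its count may belong to that gene.

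Hif3a, a hypoxia-inducible factor subunit that can oppose the other members of its family (chr7:17031507-17062427, minus strand), was called in both classes of the lineage. In oligodendrocyte-like nuclei the acute mice had 137, 168 and 160 CPM and the long-term mice 107, 37.5, 39.4 and 69.4, while the old ad libitum mice had 13.01 to 22.3. In precursor-like nuclei the acute mice had 26.6, 45.8 and 54.9 CPM and the long-term mice 9.94, 5.87, 10.9 and 2.94. The groups did not overlap in either class, and acute mice were the highest of the series in both. The estimates on the log2 scale were -1.48 ± 0.25 (edgeR adjusted p = 0.0221) and -2.47 ± 0.38 (edgeR adjusted p = 0.00296). The precursor-like call did not pass with nuclei clustered more finely (-2.19, edgeR adjusted p = 0.0612) or without long-term mouse 2 (-2.35) or acute mouse 3 (-2.22), and the oligodendrocyte-like call did not pass without acute mouse 2 (-1.40) or 3 (-1.46). Hif3a was higher in astrocyte-like nuclei, at a mean log2 CPM of 7.85 in acute and 7.44 in long-term mice against 5.49 and 3.27 in precursor-like nuclei, and the astrocyte markers of the precursor-like sums, at 1284 to 2108.5 CPM in acute and 1014 to 1067 in long-term mice, did not overlap either.

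A pair of the calls lies at the Fkbp5 locus. Gm22146, a non-coding gene annotated on the plus strand inside Fkbp5 (chr17:28446500-28456457), had 19.0, 16.5 and 27.8 CPM in the acute and 3.05, 3.50, 3.00 and 10.2 CPM in the long-term mice, without overlap (estimate -1.97 ± 0.40 on the log2 scale, edgeR adjusted p = 0.0314). It was -2.68 without long-term mouse 4 and did not pass without long-term mouse 2 or 3 or acute mouse 2 or 3 (the last at -1.64, edgeR adjusted p = 0.441). E230001N04Rik, a long intergenic non-coding RNA that lies 5.193 kb upstream of the span of Fkbp5 in GENCODE (chr17:28522720-28525398, plus strand), rested on few molecules: 3, 34 and 36 UMIs in the acute and 2, 6, 2 and 5 in the long-term mice, which is 11.4, 11.02 and 16.1 CPM against 6.09, 3.00, 0.999 and 2.82 (-2.32 ± 0.45, edgeR adjusted p = 0.0221); it overlaps Gm20109 on the other strand. The call was lost on leaving out any 1 of long-term mice 2, 3 and 4 and acute mice 2 and 3. Fkbp5 itself (chr17:28399094-28517527, minus strand) had 152, 188 and 251 CPM in the acute mice against 104, 43.5, 36.4 and 64.9 in the long-term mice. The groups did not overlap, but the estimate of -1.87 ± 0.38 did not pass (edgeR adjusted p = 0.177). It passed without long-term mouse 1 (-2.05) and without all libraries numbered 1 (-2.14). Gm22146 and Fkbp5 overlap on opposite strands, and the use of strand in counting is not given in the sources used here, so part of the count of one may belong to the other.

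Of the 26 listed genes that glucocorticoids induce, 21 passed the filter on low counts in oligodendrocyte-like nuclei. Besides the 3 that were called, 7 more were lower at an unadjusted p below 0.05, so 10 in all and none higher, where 2.37% of all genes tested were lower and 3.21% higher at that threshold. The estimate was below 0 for 19 of the 21, and the median log2 fold change was -0.83 against 0.00 over all genes tested. This list was drawn up with earlier results of these data known, so the count is not independent evidence of its direction. Listed genes were 3 of 11 calls in these nuclei with all mice, 6 of 35 without the libraries numbered 1 and 7 of 38 without long-term mouse 1. They were 1 of 4 calls without acute mouse 2 and 1 of 6 without acute mouse 3. With the median UMIs per nucleus in the model they were 0 of 6, and the list median was -0.48. Without long-term mouse 3 they were 3 of 12, with a list median of -0.40. The number of listed genes called thus moved with the total number of calls.

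Among the listed genes that did not pass, Nfkbia, the inhibitor of NF-kappaB, had 45.5, 21.7 and 31.4 CPM in acute and 21.3, 13.5, 5.99 and 11.3 in long-term mice, where only long-term mouse 1 came close to the acute range (-1.31 ± 0.32, edgeR adjusted p = 0.131; 0.0240 with the deposited library number as a factor). Cdkn1a, which encodes the cell-cycle inhibitor p21, had 30.3, 11.99 and 9.41 CPM against 9.14, 3.00, 0.499 and 0, and the estimate was -2.81 ± 0.62 (edgeR adjusted p = 0.0670; 0.0277 with that factor). The long-term values of Cdkn1a rest on few UMIs, so the size of its estimate is uncertain. Sgk1 had 258, 219 and 369 CPM against 256, 78.0, 44.4 and 122, with long-term mouse 1 inside the acute range and the other 3 mice below it (-1.38 ± 0.49, edgeR adjusted p = 0.723). Zbtb16, a zinc-finger repressor, showed the same arrangement at 398, 688 and 596 against 649, 274, 107 and 239 CPM. The estimates above 0 were those of Cebpd (0.31 ± 0.42) and Gpd1 (0.43 ± 0.28).

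**Figure D2:**
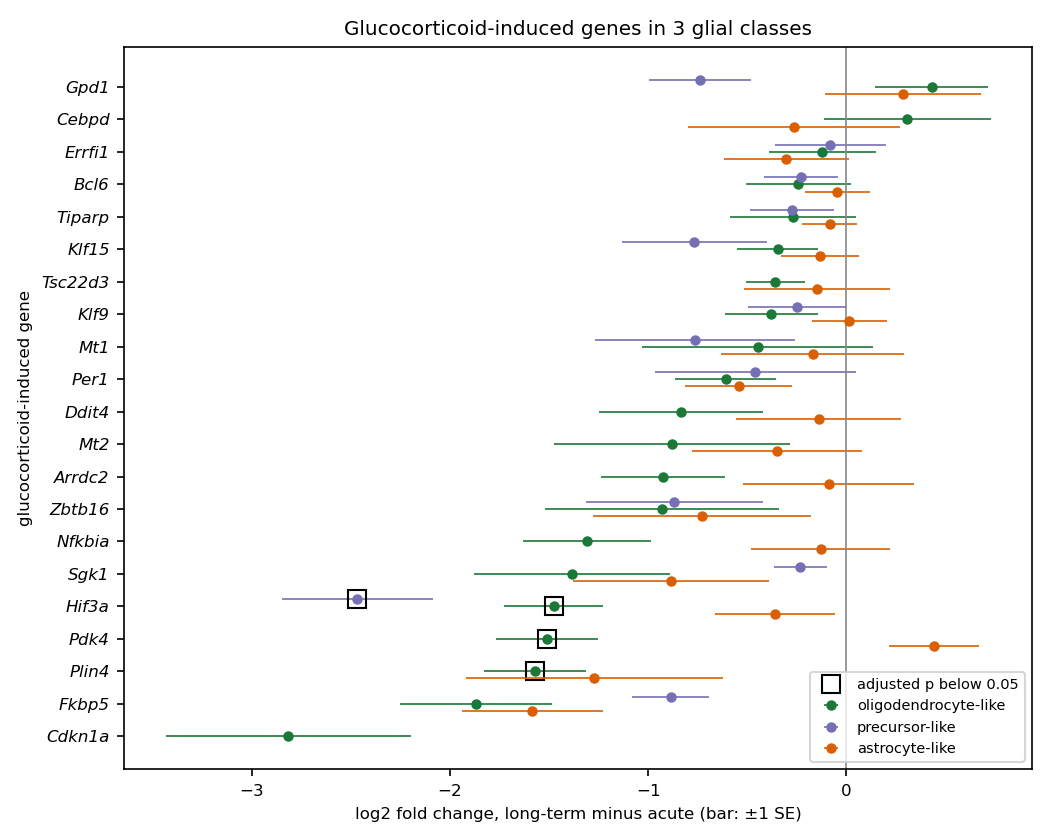
Log2 fold change of long-term against acute restriction (horizontal axis; points are edgeR estimates, lines are 1 SE) for the 21 glucocorticoid-induced genes that passed the filter in oligodendrocyte-like nuclei, with their values in precursor-like and astrocyte-like nuclei where they passed there. Squares mark adjusted p below 0.05: Hif3a, Pdk4 and Plin4 in oligodendrocyte-like and Hif3a in precursor-like nuclei.

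In precursor-like nuclei 12 listed genes passed the filter and 12 of 12 estimates were below 0, with a median of -0.60. The astrocyte markers of these sums, given above with Hif3a, were lower too, and their part in these estimates was not tested. Fkbp5 there had 77.4, 75.8 and 103 CPM in acute and 54.6, 48.4, 36.9 and 45.5 in long-term mice, without overlap (-0.89 ± 0.19, edgeR adjusted p = 0.0793; 0.0438 with the deposited library number as a factor). In astrocyte-like nuclei 23 passed, 18 estimates were below 0 and the median was -0.15. In the other classes tested the list median was below 0 too, except in endothelial-like nuclei, where 4 of 10 estimates were below 0 (median 0.06). In subicular or cortical excitatory neuron-like nuclei 12 of 13 estimates were below 0 (median -0.23). In CA1 pyramidal neuron-like nuclei it was 13 of 19 (median -0.11), in fibroblast-like nuclei 8 of 13 (-0.23) and in inhibitory neuron-like nuclei 9 of 15 (-0.05). In granule neuron-like nuclei it was 12 of 22 (median -0.025). Only 3 listed genes passed the filter in microglia-like nuclei (median -0.81). Fkbp5 had 32.8, 45.2 and 66.8 CPM in acute against 27.6, 10.2, 4.49 and 13.9 in long-term astrocyte-like nuclei, again without overlap and without passing (-1.59 ± 0.36, edgeR adjusted p = 0.736). The receptor's own gene Nr3c1 and the related Nr3c2 were at 0.18 ± 0.17 and -0.04 ± 0.15 in oligodendrocyte-like nuclei, and of 7 listed receptors and chaperones that passed the filter the median was -0.01.

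The other genes that fell in oligodendrocyte-like nuclei were Phyhd1, Dtnb and Galnt17. Phyhd1, a dioxygenase related to phytanoyl-CoA hydroxylase (chr2:30266203-30282149, plus strand), had 41.7, 83.9 and 50.2 CPM in the acute mice and 27.4, 19.5, 20.5 and 24.8 in the long-term mice. The old ad libitum mice had 4.95, 7.81 and 8.18 CPM, so that the long-term mice lay between them and the acute mice without overlap on either side. The estimate was -1.48 ± 0.23 on the log2 scale (edgeR adjusted p = 0.00258), a level 2.79-fold lower, and it did not pass without acute mouse 2 (-1.07, edgeR adjusted p = 0.271).

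Dtnb, which encodes beta-dystrobrevin of the dystrophin complex (chr12:3572381-3781796, plus strand), had 266, 272 and 247 CPM in the acute and 149, 131, 186 and 138 in the long-term mice, the latter close to the 114 to 131 CPM of old ad libitum mice (-0.74 ± 0.14, edgeR adjusted p = 0.0221). Dtnb did not pass without long-term mouse 2 (-0.65) or 4 (-0.71) or acute mouse 2 (-0.70) or 3 (-0.79), and it overlaps Dtnbos on the other strand. Galnt17, a glycosyltransferase of the family that starts mucin-type sugar chains (chr5:130872082-131308497, minus strand), had 133, 105 and 121 CPM against 73.1, 66.5, 72.9 and 58.7 (-0.75 ± 0.15, edgeR adjusted p = 0.0254). It did not pass without long-term mouse 2 or 4 or any 1 acute mouse (-0.85 to -0.70), and it overlaps Gm43166 on its own strand. In Galnt17 the order differed from the other genes that fell: old ad libitum mice, at 95.4 to 99.1 CPM, lay between the groups, and young mice were lowest at 21.5 to 36.3.

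Of the genes that rose, Eml1 had the smallest adjusted p of all tests. Eml1, a microtubule-binding protein (chr12:108370957-108539617, plus strand), had 182, 167 and 183 CPM in the acute mice and 292, 373, 333 and 360 in the long-term mice. The acute mice were the lowest of the series, below the old (324 to 431 CPM) and the young ad libitum mice (324 to 420), and 3 of the 4 long-term mice lay within the range of both, with long-term mouse 1 between them and the acute mice. The estimate was 1.01 ± 0.14 on the log2 scale (edgeR adjusted p = 0.000372), a level 2.01-fold higher, and the gene was called under each of the 20 alternatives that gave it a value. Eml1 overlaps Gm16596 on the other strand. Genes higher at an unadjusted p below 0.05 in these nuclei had a median span of 66.8 kb. The median was 34.3 kb for those lower and 29.4 kb for all genes tested. Eml1 spans 169 kb, and with the gene length trend removed it was at 1.00 (edgeR adjusted p = 0.00109).

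A230001M10Rik, a long intergenic non-coding RNA (chr3:102262405-102445132, plus strand), had 288, 423 and 367 CPM in acute and 548, 648, 643 and 728 in long-term mice, against 672 to 691 in old ad libitum mice. The estimate was 0.86 ± 0.13 on the log2 scale (edgeR adjusted p = 0.000788), and it too was called under each of its 20 alternatives. With finer clusters the oligodendrocyte-like class split, and A230001M10Rik was a leading gene of the cluster of 5634 nuclei but not of that of 4404. Their sums were joined there too, and a difference in their mix between groups was not tested. 9330188P03Rik (chr14:105589476-105632054, plus strand) had 3.79, 10.7 and 16.1 CPM in acute and 36.6, 26.0, 28.0 and 40.6 in long-term mice, without overlap (1.40 ± 0.28, edgeR adjusted p = 0.0248). It did not pass without long-term mouse 4 or acute mouse 1 or 2. It overlaps Gm6145 on the other strand, a gene that leads an astrocyte-like cluster, and A230001M10Rik overlaps Gm43242 on its own strand.

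The other call in precursor-like nuclei was Mertk, a receptor kinase that astrocytes and microglia use to engulf debris (chr2:128698956-128802894, plus strand). It had 181, 235 and 191 CPM in the acute and 147, 93.9, 86.0 and 114 in the long-term mice, without overlap (-0.86 ± 0.16, edgeR adjusted p = 0.0263), and it overlaps Gm14011 on the other strand. The call was lost on leaving out any 1 of long-term mice 2, 3 and 4 and acute mice 2 and 3 (-0.90 to -0.75). Markers of astrocytes moved with it: 10 of 10 had a UMI in these sums, and their summed level was 1326, 2108.5 and 1284 CPM in acute against 1014 to 1067 in long-term mice, without overlap (exact permutation test, two-sided p = 0.0286, the smallest that 35 assignments allow). The 9 granule neuron markers did not overlap either, at 299 to 362 CPM in acute and 245 to 280 in long-term mice. The 11 oligodendrocyte markers overlapped, at 506, 861 and 204 CPM in acute and 198 to 295 in long-term mice. Their part in the precursor-like value of Hif3a was not tested. The p-value of the astrocyte markers is not adjusted for the number of marker sets compared. The summed precursor markers were lower in acute mice, at 12517 to 13870 CPM against 14609 to 16926. With nuclei clustered more finely (Leiden resolution 2) the astrocyte markers overlapped, at 1014 to 1141 CPM in acute and 1038 to 1089 in long-term mice. Mertk was then at -0.61 (edgeR adjusted p = 0.305), and Hif3a at -2.19 (edgeR adjusted p = 0.0612).

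In oligodendrocyte-like nuclei the summed oligodendrocyte markers overlapped between groups, at 17283 to 18264 CPM in long-term and 17796 to 18970 in acute mice, as did the markers of astrocytes, microglia and precursors. The 10 markers of inhibitory neurons summed to 2282 to 2626 CPM in long-term and 1934 to 2120 in acute mice, without overlap. The 7 markers of mossy cells summed to 13.5 to 15.2 CPM against 3.79 to 13.4, also without overlap (exact permutation test, two-sided p = 0.0286 for both). Among all marker sets compared in these nuclei these were the ones without overlap, and p is not adjusted for the number of sets. For mossy cells the nearest mice of the groups were at 13.54 and 13.45 CPM, and 3.79 CPM in acute mouse 1 is 1 UMI. The part of these markers in the results was not tested.

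Outside the classes where they were called, the estimates of the 12 called genes went both ways, as the dot plot over classes shows. Dtnb was tested in 12 classes and lay between -0.09 and 0.36 in the 11 where it was not called. Eml1 was at 0.05 ± 0.10 in granule neuron-like nuclei, at -0.05 ± 0.21 in precursor-like nuclei and at -1.22 ± 0.39 in fibroblast-like nuclei (unadjusted p = 0.00357). In the direction of its call, it was at 0.28 ± 0.12 in inhibitory neuron-like nuclei (edgeR unadjusted p = 0.0331). In subicular or cortical excitatory neuron-like nuclei it was at 0.25 ± 0.15. Its other estimates lay between -0.07 in CA3 pyramidal neuron-like and 0.51 in endothelial-like nuclei. Phyhd1 was higher under long-term restriction in granule neuron-like nuclei at an unadjusted p of 0.0093 (0.52 ± 0.17). The same gene was at 0.52 ± 0.22 in CA3 and 0.47 ± 0.20 in CA1 pyramidal neuron-like nuclei (edgeR unadjusted p = 0.0277 and 0.0341). In astrocyte-like nuclei it was at -0.42 ± 0.22, and Pdk4 was at 0.44 ± 0.23 there (unadjusted p = 0.0673). Some estimates went in the same direction as in oligodendrocyte-like nuclei. In astrocyte-like nuclei Plin4 was at -1.27 ± 0.65, E230001N04Rik at -1.16 ± 0.55 and Galnt17 at -0.74 ± 0.35 (edgeR unadjusted p = 0.0645, 0.0498 and 0.0560). E230001N04Rik was at -1.09 ± 0.52 in subicular or cortical excitatory neuron-like nuclei (edgeR unadjusted p = 0.0513). Hif3a was at -1.14 ± 0.57 in CA3 pyramidal neuron-like nuclei (edgeR unadjusted p = 0.0596). A230001M10Rik and 9330188P03Rik were above 0 in each other class that tested them. None of these passed after adjustment.

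**Figure D3:**
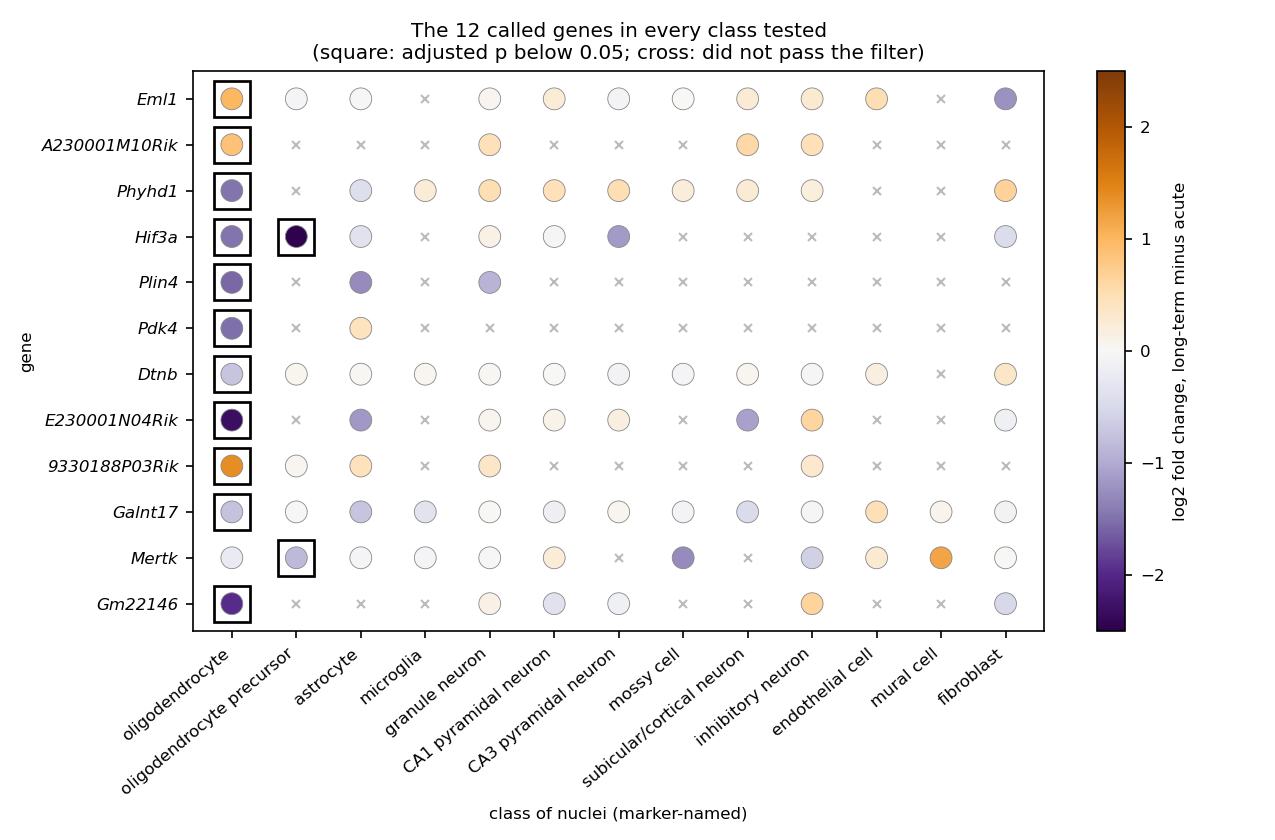
Log2 fold change of long-term against acute restriction (colour) for the 12 called genes (vertical axis) in the 13 classes tested (horizontal axis); squares mark adjusted p below 0.05 and crosses genes that did not pass the filter on low counts. The 13 squares fall in the oligodendrocyte-like and precursor-like columns, with Hif3a in both.

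Whether these differences were larger in oligodendrocyte-like nuclei than elsewhere was tested on the difference between classes within each mouse, with limma. No gene passed against granule neuron-like, astrocyte-like, precursor-like or microglia-like nuclei, where 301 of 11122, 274 of 10229, 404 of 8602 and 79 of 3888 genes had an unadjusted p below 0.05. Eml1 differed from precursor-like nuclei by 1.01 and from granule neuron-like nuclei by 0.93 on the log2 scale (limma adjusted p = 0.266 and 0.368). So the calls stood in 1 lineage, and that they are particular to it was not shown.

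The remaining lists were tested in oligodendrocyte-like nuclei, where no further gene of them was called. The counts at an unadjusted p below 0.05 stand beside 3.21% higher and 2.37% lower over all genes tested. Of 41 myelin and maturation genes, 41 passed the filter, 3 were higher and 1 lower at an unadjusted p below 0.05, and the median was 0.12. Ugt8a, the enzyme that makes the myelin lipid galactosylceramide, had 778, 719 and 710 CPM in acute and 868, 909, 927 and 968 in long-term mice, without overlap (0.38 ± 0.11, edgeR adjusted p = 0.254). Mbp, a structural protein of myelin, was at 0.09 ± 0.10. Cholesterol synthesis genes, 23 of 24 measured, lay above 0 in 18 and had a median of 0.21, which was -0.02 without acute mouse 2; 3 were higher and 0 lower at an unadjusted p below 0.05; Cyp51 was at 0.49 ± 0.24 and Tm7sf2 at 1.25 ± 0.55, both without passing.

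Clock output genes had 11 of 11 estimates below 0, from 13 listed, with a median of -0.41; 3 were lower at an unadjusted p below 0.05, among them Per1, which the glucocorticoid list also holds. Per1, a light- and hormone-responsive clock gene, had 45.5, 33.4 and 44.8 CPM in acute and 48.7, 28.5, 15.5 and 24.3 in long-term mice, where long-term mouse 1 lay above all acute mice (-0.61 ± 0.26, edgeR adjusted p = 0.744). The 5 measured clock genes of the opposite phase had a median of 0.12. The time of day of sampling is not given in the sources used here.

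Genes of fasting and fatty acid oxidation, 19 of 26 measured, had a median of 0.01. Besides Pdk4 their estimates went both ways: Cpt1a, which admits fatty acids to mitochondria, was at -1.37 ± 0.45 (edgeR adjusted p = 0.427) and Ppara, a receptor for fatty acids, at 1.19 ± 0.49 (edgeR adjusted p = 0.731). Of 33 measured axon guidance genes 5 were higher and 2 lower at an unadjusted p below 0.05. Robo1, a receptor for Slit proteins, came nearest to passing, at 1089, 1144 and 1350 CPM in acute and 1596, 1758, 1540 and 2131 in long-term mice without overlap (0.61 ± 0.13, edgeR adjusted p = 0.0511; 0.0136 with the deposited library number as a factor). Insulin, IGF and FoxO genes (21 of 26 measured, median -0.01), heat shock genes (17 of 20, -0.04), interferon response genes (6 of 22, -0.02) and fatty acid synthesis genes (15 of 16, -0.08) centred near the median of all genes, as did 71 of 71 subunits of oxidative phosphorylation (-0.10).

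Genes of reactive oligodendrocytes, 6 of 9 measured, had a median of -0.71, and 3 were lower at an unadjusted p below 0.05. C4b, a complement component that rises with age in glia, had 288, 356 and 241 CPM in acute and 64.0, 127, 140 and 144 in long-term mice, without overlap (-1.18 ± 0.35, edgeR adjusted p = 0.473). H2-D1, a class I histocompatibility gene, had 15.2, 9.40 and 36.3 CPM against 12.2, 5.00, 2.497 and 1.69, and only long-term mouse 1 reached the acute range (-2.46 ± 0.56, edgeR adjusted p = 0.131; 0.0406 with that factor). These genes recur in other lists: H2-D1 is one of 3 measured class I genes of 14 (median -1.15), and the lists of reactive astrocytes (6 of 25, -0.66) and disease-associated microglia (11 of 23, -0.26) each had 3 lower at that threshold. Immediate early genes (11 of 22) had a median of -0.21 and adult neurogenesis genes (6 of 17) of 0.03.

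**Figure D4:**
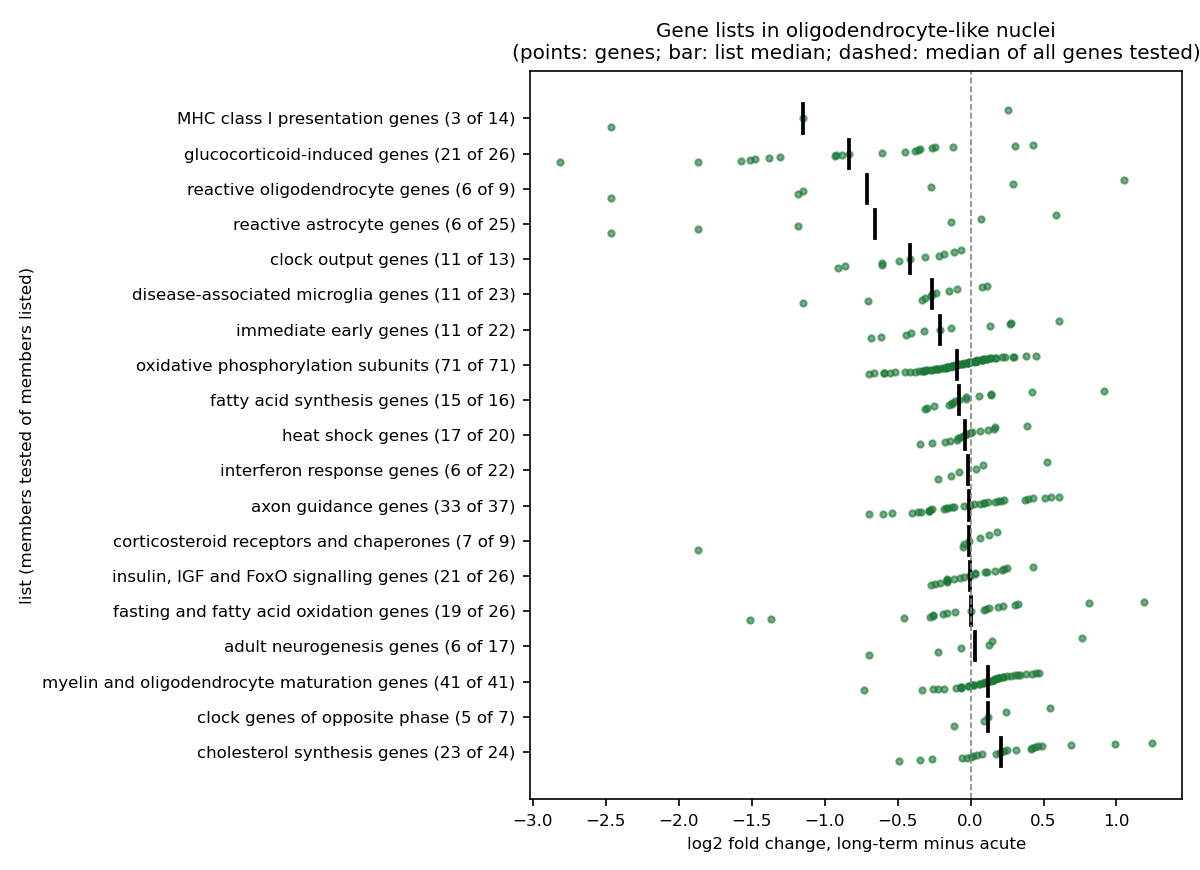
Log2 fold change of long-term against acute restriction in oligodendrocyte-like nuclei (horizontal axis) for the measured members of 19 gene lists (vertical axis, with the number measured of the number listed); points are genes, solid bars list medians and the dashed line the median of all genes tested. The glucocorticoid-induced genes have a median of -0.83 with 19 of 21 points below 0.

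With the libraries numbered 1 of all groups left out, which leaves 3 long-term and 2 acute mice, 35 genes were called in oligodendrocyte-like (0.301% of those tested), 10 in precursor-like (0.109%) and 18 in astrocyte-like nuclei (0.168%), and the 13 calls described above were among the total of 65, which also holds 4921534H16Rik (-1.05) and Vcan (-0.90), lower in inhibitory neuron-like nuclei (edgeR adjusted p = 0.0457 for both), where with all mice they were at -0.89 and -0.62 without passing. In oligodendrocyte-like nuclei 6 glucocorticoid-induced genes were then lower: Plin4, Hif3a, Fkbp5, Pdk4, Arrdc2 (-1.18, against -0.93 with all mice) and Cdkn1a (-3.06). In astrocyte-like nuclei Zbtb16 (-1.63) and Fkbp5 (-2.27) led the calls, and in precursor-like nuclei Zbtb16 (-1.66) and Fkbp5 (-1.06) were lower too. With all mice Zbtb16 was at -0.73 in astrocyte-like and -0.87 in precursor-like nuclei, without passing in either. Zbtb16 in astrocyte-like nuclei had 111, 238 and 313 CPM in acute and 247, 94.2, 58.3 and 99.6 in long-term mice: mouse 1 was the lowest of the acute and the highest of the long-term group, and the other mice were well apart. Precursor-like calls also included genes that astrocytes express strongly, Gja1 (-3.02), the main astrocyte gap junction gene, and Slc4a4 (-1.30), a bicarbonate transporter, which with all mice were at -2.84 and -1.08 (edgeR adjusted p = 0.0668 for both). Both genes are among the astrocyte markers whose sum is given above, so that sum and these calls partly share the same values. The part of the astrocyte markers in the precursor-like calls was not tested.

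A term for number 1 in the model, in place of leaving the libraries out, gave 44 calls, 31 of them beyond the 13. The first of these in oligodendrocyte-like nuclei were Itpk1, an inositol phosphate kinase (-0.65, edgeR adjusted p = 0.0118), and Cdkn1a (-2.74, edgeR adjusted p = 0.0144). In precursor-like nuclei Plce1 (-0.70), Gja1 (-2.85), Htra1 (-0.81) and Gabrb1 (-0.51) were lower, and in endothelial-like nuclei Lrrtm4 (1.59), Frmpd4 (1.66) and Gm26871 (1.82) higher. In endothelial-like nuclei Hba-a2, an alpha-globin gene of red blood cells, was lower (-4.45, edgeR adjusted p = 2.24e-08), where it had been at -4.04 ± 0.91 without passing. The endothelial-like sums hold 37, 24 and 43 nuclei in acute mice, and only long-term mice 1 and 4, with 81 and 31 nuclei, entered the fit. Over all named nuclei the 4 globin genes summed to 36.2, 46.1 and 36.2 CPM in acute and 16.96, 21.9, 3.26 and 7.43 in long-term mice, without overlap, against 6.31 to 101 in old ad libitum mice. Its part in the endothelial-like values was not tested.

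In the classes with no call the first genes by p did not pass, and some of them are given here. In CA1 pyramidal neuron-like nuclei Gpc6, a cell-surface proteoglycan, had 43.7, 31.8 and 52.5 CPM in acute and 96.2, 72.6, 82.8 and 71.6 in long-term mice, without overlap (0.96 ± 0.17, edgeR adjusted p = 0.436). In granule neuron-like nuclei Gm5087 had 46.9, 47.7 and 49.6 CPM against 58.0, 71.7, 71.8 and 74.4 (0.53 ± 0.09, edgeR adjusted p = 0.478), and it also led in inhibitory neuron-like nuclei (0.79 ± 0.15, edgeR adjusted p = 0.827). Sh2d4b, which encodes an SH2-domain protein, was at 1.09 ± 0.19 and Wnt10b, a secreted Wnt ligand, at -2.99 ± 0.57 in granule neuron-like nuclei. In astrocyte-like nuclei Slco1b2 (1.28 ± 0.29) and Shisal1 (1.12 ± 0.25), and in microglia-like nuclei Commd8 (1.19 ± 0.31), came first. In mural cell-like nuclei, the class with the smallest adjusted p among these, Fap, a cell-surface protease, had 77.5 and 141 CPM in acute mice 1 and 3 and 287, 482 and 392 in long-term mice 1, 2 and 4, the mice with the 20 nuclei needed to enter the fit (1.77 ± 0.49, edgeR adjusted p = 0.222). Sema5a, a guidance molecule, was at 1.70 ± 0.49 there. Those sums hold 22 to 61 nuclei each and gave 1357 genes to test.

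The make-up of the hippocampus by nuclei was compared as shares of the named nuclei. No class of 14 passed an exact two-sided permutation test over the 35 assignments of mice after adjustment, and the smallest p this design allows is 0.0286, so that 1 class alone could not pass. Subicular or cortical excitatory neuron-like nuclei reached it: they made up 6.09%, 6.64%, 6.88% and 5.59% in long-term and 2.37%, 0.282% and 5.22% in acute mice, without overlap (adjusted p = 0.400). The difference in log2 odds was 2.09. It was 1.40 with finer clusters (exact permutation p = 0.200) and 0.87 without acute mouse 2, which had 18 such nuclei. Without the libraries numbered 1 it was 2.42 (exact permutation p = 0.100, the smallest that 10 assignments allow). A cluster of 1323 nuclei that matched the subicular or cortical class best stayed unnamed and is not in these shares. It held 148, 39 and 142 nuclei in acute and 155, 82, 86 and 48 in long-term mice. The lack of overlap therefore rests on which clusters were named. Oligodendrocyte-like nuclei made up 14.4% ± 9.94 (SD, n = 4) in long-term and 13.6% ± 10.9 (SD, n = 3) in acute mice (exact permutation p = 0.743; the difference in log2 odds was 0.21, -0.08 without the libraries numbered 1, and between -0.84 without acute mouse 1 and 0.98 without acute mouse 2 on leaving out 1 mouse), and precursors 3.61% ± 0.965 and 3.41% ± 0.507. A share of the nuclei captured and the number of cells in the tissue cannot be told apart here.

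**Figure D5:**
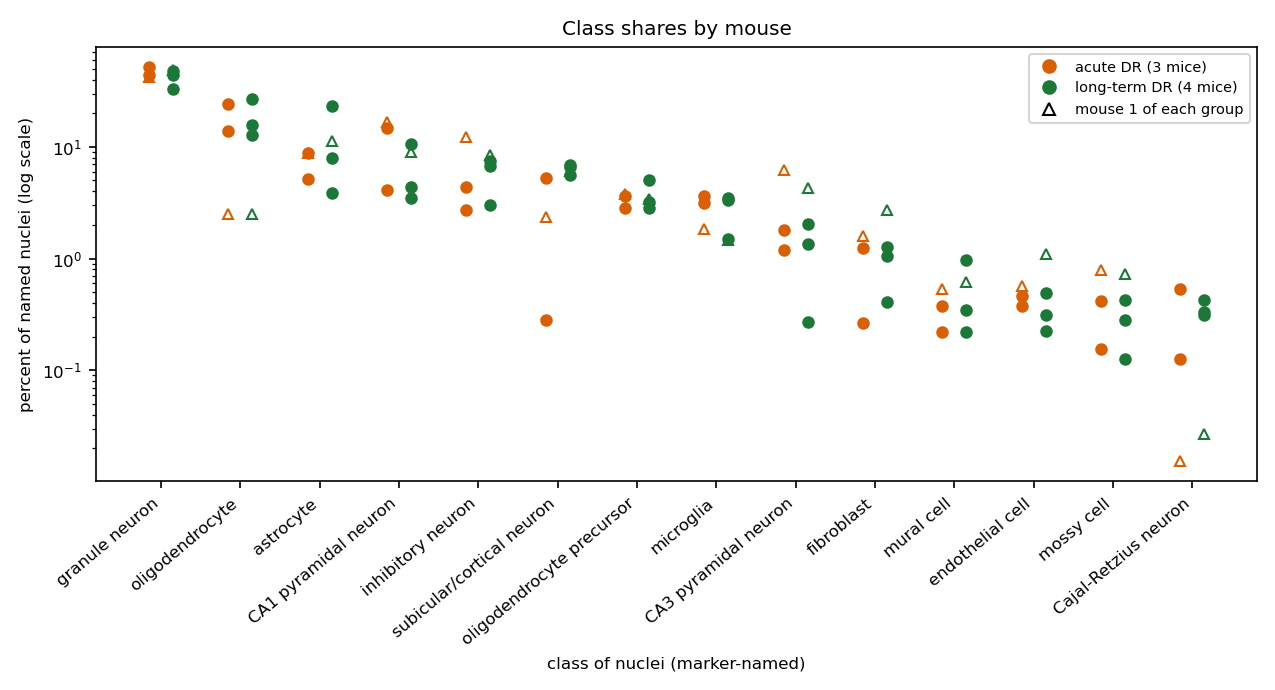
Share of named nuclei (percent, log scale) of each class in each restricted mouse; filled points are mice and triangles mouse 1 of each group. The oligodendrocyte-like share is lowest in both mice numbered 1, at 2.49% and 2.53%, and the groups do not overlap for subicular or cortical excitatory neuron-like nuclei.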

How the data were processed

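Per the labels' protocols, nuclei of whole frozen hippocampus were sorted on Hoechst and sequenced with the 10x 3′ chemistry. Per the submitters' processing notes, Cell Ranger 4.0.0 and the mm10 build were used; whether introns or strand entered the counting is not given in the sources used here. The deposited values are raw UMI counts per gene and barcode of 32285 genes, with no normalization by the authors that the files show.

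Of 105759 barcodes, 105427 were retained (500 genes or more, mitochondrial share no higher than 5%), doublets were called in each library at a rate set by its number of barcodes and removed, and the remaining nuclei were clustered (scanpy 1.11.5, Leiden resolution 1, 2000 variable genes, 30 components). Of 37 clusters, 21 were named "-like" from marker genes and 16 clusters with 16260 nuclei stayed unnamed; the naming thresholds were set after the clusters had been seen. UMIs were summed per mouse and class where a mouse had at least 20 nuclei. Mice of all 4 groups that had such a sum entered a fit, so that they share the estimate of spread, with edgeR 4.0.16 (TMM, low-count filter, quasi-likelihood test, Benjamini-Hochberg adjustment within a class); DESeq2 1.42.0 and limma 3.58.1 were used as stated. Log2 CPM values carry a prior count of 2. The edgeR fit and a limma fit were also run on counts simulated from the oligodendrocyte-like sums. Gene positions are from GENCODE vM21 on GRCm38, matched by gene ID for 99.85% of genes.

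The members and gene lists were chosen with earlier results of these data known. Genes named are all calls, the extremes and low-p members of each list, the first genes of classes with no call, and the first 10 calls that appear only with a term for number 1; the genes called without the libraries numbered 1 were picked after their values were seen. No label says that mice of a group came from separate litters or batches, and 1 library stands for 1 mouse; p-values measure only the spread between these samples, which may be technical. Libraries held 38546292 to 80538090 UMIs in the restricted groups. Intervals are not given for sums. Each SE was derived from the edgeR estimate and its quasi-likelihood F statistic, and covers the spread between mice only through that statistic. Alternatives covered the tool, size factors, filter, samples fitted, replicate block, number terms, depth, gene length, class size, clustering and each restricted mouse left out.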

Additional observations from a re-analysis of the deposited data

Results flagged for a closer look

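In 27 sets of values of the 4 long-term mice, which are the 13 calls and the 14 class shares, 1 mouse stood apart by Dixon's test, where chance gives about 1 in 20 groups. Gm22146, the non-coding gene inside Fkbp5, was at 3.57 log2 CPM in oligodendrocyte-like nuclei of long-term mouse 4, against 2.17, 2.25 and 2.12 in the other 3 long-term mice. The gap to the nearest mouse was 0.909 of the whole range, above Dixon's 95% critical value for 4 values. Its 18 UMIs compare with 1, 7 and 6, and it remained below the 3 acute mice.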

How the results depend on the processing

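The 13 calls kept their sign under every alternative that gave them a value. Eml1 and A230001M10Rik passed under each of 20, Phyhd1 failed only without acute mouse 2, and the other calls failed under 2 to 8. The total number of calls was 150 with no low-count filter, 44 with a term for number 1, 52 with the deposited library number as a factor, 24 with the gene length trend removed, 65 without the libraries numbered 1 and 4 with genes scaled to unit variance before clustering, an alternative chosen after seeing the data (Eml1, A230001M10Rik, Phyhd1 and Pdk4). Leaving out 1 mouse at a time gave 6 to 42 calls: 42 without long-term mouse 1, 6 without acute mouse 2, and 8 without long-term mouse 2 or acute mouse 3. Of the 13, 4 were kept without acute mouse 2, 5 without acute mouse 3, 7 without long-term mouse 2, 7 with the median UMIs per nucleus in the model, and 8 of 12 calls came from the 13 with only the 7 restricted libraries fitted. DESeq2 made 18 calls and shared 3 of the 13; 10 had no adjusted p there. A fit with the replicate block gave 140 calls, 82 of them endothelial-like, and kept the 13. The replicate numbers of the titles do not pair the mice: deviations of mice with the same number correlated at 0.69, -0.12 and -0.23 in granule neuron-like and 0.17, -0.09 and -0.16 in oligodendrocyte-like nuclei. Mice with the same deposited library number correlated at 0.69, 0.40 and 0.69 and at 0.17, 0.25 and 0.18, a hint from the data only. No class share passed under any alternative, which the small number of assignments fixes for a single class. The causes of these changes were not tested. Among the 13 calls, depth limits E230001N04Rik, Gm22146, 9330188P03Rik and Hif3a in precursor-like nuclei, where single restricted mice had 1 or 2 UMIs. It also limits Cdkn1a in oligodendrocyte-like nuclei, which is not among the 13.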
